A study of Homo sapiens with 24 samples.

Results

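Cyclin-dependent kinase (CDK) inhibitor genes are the CIP/KIP genes CDKN1A (p21), CDKN1B (p27) and CDKN1C (p57) and the INK4 genes CDKN2A (p16 and ARF), CDKN2B (p15), CDKN2C (p18) and CDKN2D (p19). All 7 were found by their symbols among the 57736 genes of the count table, and 3 of the 7, CDKN1A, CDKN1B and CDKN2D, had enough counts to be tested.

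RNA was measured in bulk in U87-T cells, a human glioblastoma line made by transducing U87 cells with TERT, the catalytic subunit of telomerase. A DAXX series compared WT cells with DAXX_KO cells and an ATRX series compared WT cells with ATRX_KO cells, each in control and with etoposide, a topoisomerase inhibitor that breaks DNA, so the 24 libraries fell into 8 groups of 3. WT cells carried an empty Cas9 vector and the TERT transgene, and both knockouts were made from U87-T cells. Each knockout was a single-cell clone with features of ALT (alternative lengthening of telomeres), so an effect of the lost gene and a trait of the clone cannot be told apart. The labels call the control cells control or untreated, and give no dose or time of etoposide for these libraries. The titles of the DAXX_KO libraries name DAXX, whereas their genotype tag names ATRX. DAXX mRNA was 34.5 ± 1.3 CPM (counts scaled to a common library size, mean ± SD, n = 3 here and below) in WT control cells of that series and 5.93 ± 1.1 CPM in DAXX_KO control cells, while ATRX mRNA was 233 ± 14 and 393 ± 27 CPM. In the ATRX series, ATRX mRNA was 189.7 ± 5.1 CPM in WT control cells and 79.4 ± 5.7 CPM in ATRX_KO control cells. TERT mRNA ranged from 3.58 to 45.4 CPM over the libraries. Libraries held 6928950 to 13298557 counts. Of 8 mesenchymal and glioma markers, 7 had a median over 10 CPM, whereas the astrocyte markers GFAP, S100B and AQP4 had at most 6, 0 and 1 counts in a library. The progenitor markers OLIG2 and SOX2 had medians of 0.558 and 0.658 CPM and at most 17 and 59 counts. PTPRC, EPCAM and ALB, markers of leukocytes, epithelium and hepatocytes, had medians under 1 CPM, and the neuronal marker RBFOX3 had a median of 1.62 CPM and at most 40 counts.

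CDKs bound to cyclins phosphorylate the retinoblastoma protein and its relatives, which frees E2F transcription factors and lets a cell enter S phase. CIP/KIP proteins bind cyclin-CDK complexes, chiefly those of CDK2, while INK4 proteins bind CDK4 and CDK6 and keep cyclin D away. CDKN1A is known to rise after DNA damage, CDKN1B protein is controlled mainly by degradation through SKP2, and CDKN2A is commonly lost in glioblastoma. U87 cells are known to lack the segment of chromosome 9 that holds CDKN2A and CDKN2B.

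The RefSeq promoters (GRCh38.p14, 250 bases before to 50 after the start) of the 3 tested genes are shown. A RefSeq start need not be the start of the gene in the GRCh37 positions given below. The CDKN1A window does not hold the sequence at the GRCh37 start of that gene. Motifs outside the windows were not searched. The capitals mark CCAAT on either strand. The CDKN1A window is chr6:36678464-36678763 on the plus strand, the CDKN1B window chr12:12717118-12717417 on the plus strand and the CDKN2D window chr19:10568930-10569229 on the minus strand.

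CDKN1A promoter: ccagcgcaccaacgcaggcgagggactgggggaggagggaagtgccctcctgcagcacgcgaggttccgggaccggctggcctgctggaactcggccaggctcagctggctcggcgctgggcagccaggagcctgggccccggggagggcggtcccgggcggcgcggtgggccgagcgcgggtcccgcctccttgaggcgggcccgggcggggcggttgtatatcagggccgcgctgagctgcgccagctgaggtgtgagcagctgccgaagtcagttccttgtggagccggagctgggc
CDKN1B promoter: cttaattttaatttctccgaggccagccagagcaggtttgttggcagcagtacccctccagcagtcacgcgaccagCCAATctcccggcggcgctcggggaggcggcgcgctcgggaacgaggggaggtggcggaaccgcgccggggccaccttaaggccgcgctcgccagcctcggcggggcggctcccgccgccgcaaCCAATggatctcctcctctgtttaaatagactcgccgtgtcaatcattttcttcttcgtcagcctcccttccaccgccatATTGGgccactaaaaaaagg
CDKN2D promoter: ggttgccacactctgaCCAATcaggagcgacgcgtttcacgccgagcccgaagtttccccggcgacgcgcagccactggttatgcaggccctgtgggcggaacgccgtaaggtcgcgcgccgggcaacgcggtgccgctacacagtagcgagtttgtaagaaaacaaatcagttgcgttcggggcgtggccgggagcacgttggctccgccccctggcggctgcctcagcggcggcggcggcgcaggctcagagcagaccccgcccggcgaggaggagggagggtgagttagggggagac

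CDKN1B had 3 CCAAT motifs, CDKN2D had 1 and CDKN1A had 0, against at least 1 in 34.6% of 35116 RefSeq promoters of the same length. The E2F motif (TTTCCCGC, TTTCGCGC, TTTGCCGC or TTTGGCGC) was in 3.31% of those promoters and the CHR motif (TTTGAA or TTCGAA) in 16.4%, both strands searched, and neither was in any of these windows. A match is a description of letters, and binding was not measured here. Whether these motifs bear on the etoposide responses of the 3 genes was not tested.

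The other 4 inhibitor genes were at or near 0. CDKN1C (GRCh37, as for all gene positions below, chr11:2904443-2907005, minus strand) had 25 counts over 24 libraries and at most 4 in a library. CDKN2B (chr9:22002902-22009304, minus strand) had 2 counts in all, and CDKN2C (chr1:51426417-51440306, plus strand) had 5. A count of 0 allows up to 3 counts, or 0.215 to 0.407 CPM depending on the library, which covers counting error only. CDKN2A (chr9:21967751-21995300, minus strand) had 38 counts, with 0 or 1 in every DAXX series library. CDKN2A in the ATRX series had 0, 1 and 1 counts in the WT control libraries, 4, 3 and 4 in WT cells with etoposide, 9, 6 and 2 in ATRX_KO control cells and 0, 6 and 0 in ATRX_KO cells with etoposide. These groups differ by a few reads and gave no test.

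**Figure D1:**
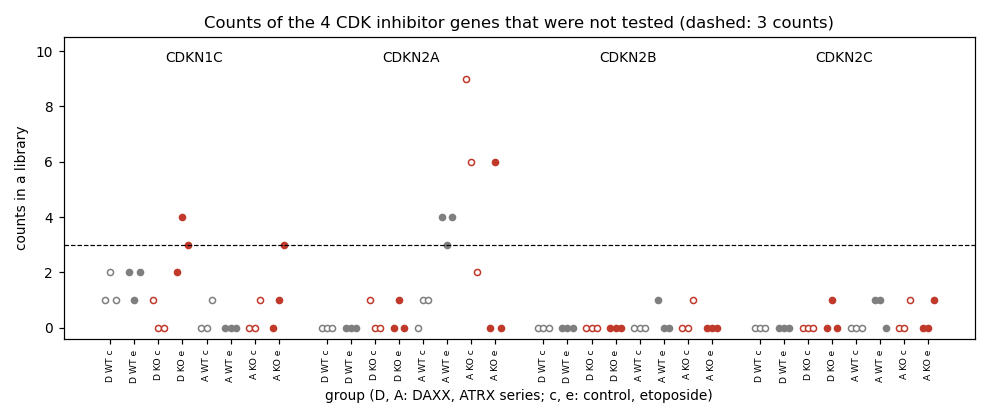
Counts per library (vertical axis) of CDKN1C, CDKN2A, CDKN2B and CDKN2C in the 8 groups (horizontal axis), with WT in grey, KO in red, control as open and etoposide as filled points, and a dashed line at 3 counts. Only CDKN1C and CDKN2A had points above the line, CDKN2A up to 9 counts in an ATRX_KO control library.

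Neighbouring genes differed between these loci. Beside CDKN2A and CDKN2B, MTAP, a gene of the methionine salvage pathway on the side of CDKN2A away from CDKN2B, had 5 to 36 counts, CDKN2B-AS1, an antisense RNA that overlaps both, had 0 to 4, and DMRTA1 had 0 to 2. Of the 10 nearest protein-coding genes around CDKN2A, 7 had no more than 3 counts in any library. Among the 7 were CDKN2B, IFNE, IFNA1, IFNA8 and IFNA2. The same number was 5 for CDKN2B, 3 for CDKN2C, 2 for CDKN1A, 1 each for CDKN1B and CDKN1C, and 0 for CDKN2D. FAF1, 478 bases from CDKN2C, had 0 to 25 counts. Near CDKN1C, SLC22A18 had 67 to 516 counts, so counts were found next to that gene. Whether the DNA of these loci was present was not tested. The sources used here do not state whether counting used strand, so reads of CDKN2A and CDKN2B cannot be told apart from reads of overlapping antisense RNA.

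In control cells, CDKN1A (chr6:36644237-36655114, plus strand) was higher in both knockouts, and the INK4 gene CDKN2D was higher in DAXX_KO and lower in ATRX_KO cells. In edgeR's quasi-likelihood fit over all genes, with Benjamini-Hochberg adjustment and an FDR of 5%, 2 of the 3 tested inhibitor genes differed between DAXX_KO and WT control cells, where 53.4% of 15247 tested genes did. Between ATRX_KO and WT control cells all 3 differed, where 41.8% of 16371 tested genes did. The fold changes compare levels of 1 gene between libraries scaled by TMM (trimmed mean of M values). In bulk libraries, fewer cells that express a gene and less RNA per cell cannot be told apart.

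CDKN1A was 153, 159 and 142 CPM in the 3 WT control libraries of the DAXX series and 218, 205 and 214 CPM in DAXX_KO. In the ATRX series it was 155, 156 and 161 CPM in WT and 223, 211 and 195 CPM in ATRX_KO. Every knockout library lay above every WT library, with log2 fold changes of 0.49 (SE 0.06, adjusted p = 1.51e-06) for DAXX_KO and 0.42 (SE 0.07, adjusted p = 9.16e-05) for ATRX_KO.

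CDKN2D (chr19:10677136-10679735, minus strand) was 60.5, 72.3 and 61.4 CPM in WT control libraries of the DAXX series and 84.8, 79.3 and 77.8 CPM in DAXX_KO. For the ATRX series it was 72.4, 71.7 and 74.9 CPM in WT and 48.6, 52.3 and 43.0 CPM in ATRX_KO. The groups did not overlap in either series and the directions were opposite, with log2 fold changes of 0.32 (SE 0.10, adjusted p = 0.00948) and -0.60 (SE 0.11, adjusted p = 0.000388). Without WT control replicate 1 of the DAXX series, the DAXX_KO difference was 0.27 with an adjusted p of 0.051 in edgeR, and the call was lost.

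CDKN1B (chr12:12838432-12875303, plus strand) was 33.2, 30.2 and 33.0 CPM in WT control libraries of the DAXX series and 37.8, 33.8 and 34.4 CPM in DAXX_KO. That log2 difference of 0.14 (SE 0.10) did not pass the test (adjusted p = 0.264), although the libraries did not overlap. For the ATRX series CDKN1B was 35.3, 35.1 and 34.9 CPM in WT and 27.4, 27.4 and 28.9 CPM in ATRX_KO, lower than WT (log2 -0.33, SE 0.09, adjusted p = 0.00822).

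**Figure D2:**
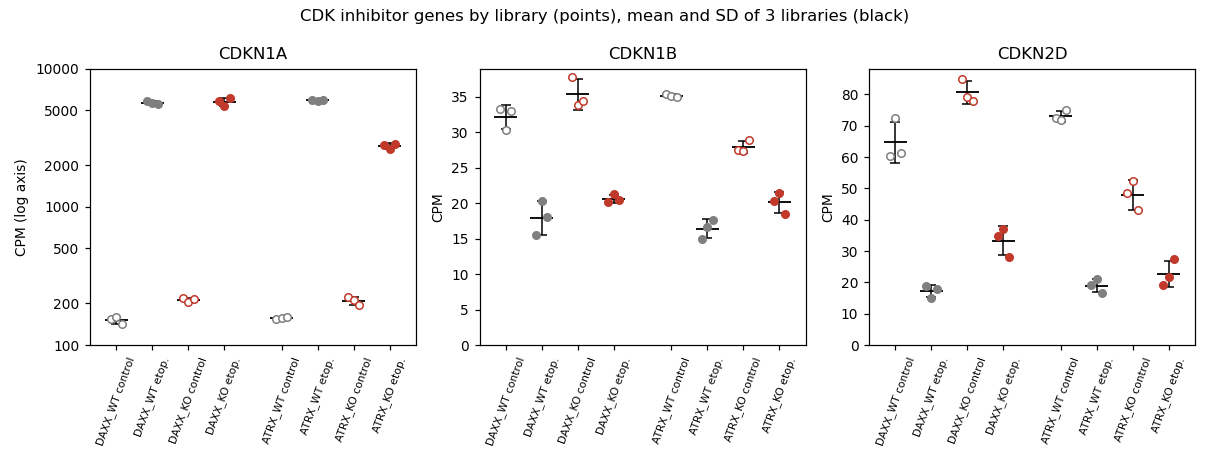
CPM of CDKN1A (log axis), CDKN1B and CDKN2D in each library (points), with WT in grey, KO in red, control open and etoposide filled, and the mean and SD of 3 libraries in black. CDKN1A with etoposide was 2605 to 2833 CPM in ATRX_KO and 5360.4 to 6123 CPM in the other 3 groups, while CDKN1B and CDKN2D were lower with etoposide in every line.

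With etoposide, CDKN1A rose and CDKN1B and CDKN2D fell in WT and in both knockout lines. All 3 tested inhibitor genes passed the test in WT cells of both series, where 60.2% (DAXX series) and 61.5% (ATRX series) of genes did. All 3 also passed in DAXX_KO, where 54.5% of genes did, and in ATRX_KO, where 49.5% did.

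CDKN1A was 5789, 5682 and 5514 CPM in the WT etoposide libraries of the DAXX series, a 37.7-fold rise (log2 5.24, SE 0.07, adjusted p = 5.89e-21). WT etoposide libraries of the ATRX series had 5900.1, 5855 and 5925 CPM, a 38.1-fold rise (log2 5.25, SE 0.08, adjusted p = 1.66e-17). The WT libraries of both series thus lay in a narrow range, all far above their controls. A higher log2 fold change in WT cells was found for 0.466% of tested genes in the DAXX series, and for 1.06% in the ATRX series.

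CDKN1A reached 5848, 5360.4 and 6123 CPM in DAXX_KO cells with etoposide, which overlapped the WT libraries. The rise within DAXX_KO was 27.3-fold (log2 4.77, SE 0.07, adjusted p = 2.17e-20). In ATRX_KO cells it reached 2813, 2605 and 2833 CPM, all below every WT library, and the rise was 13.0-fold (log2 3.70, SE 0.07, adjusted p = 1.02e-15).

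The smaller log2 response of CDKN1A went with different etoposide levels in the 2 knockouts. With etoposide, the DAXX_KO and WT levels differed by a log2 of 0.02 (SE 0.06, adjusted p = 0.772), and the ATRX_KO level was lower than WT (log2 -1.13, SE 0.07, adjusted p = 9.77e-10). Among genes tested with etoposide, 53% were called between DAXX_KO and WT and 45.9% between ATRX_KO and WT, and 1 and 2 of the 3 tested inhibitor genes were among them. The interaction, the log2 response of the knockout minus that of WT, was -0.47 for DAXX_KO (SE 0.08, adjusted p = 0.000856) and -1.55 for ATRX_KO (SE 0.09, adjusted p = 7.48e-08). In CPM the CDKN1A level increased by 5510.2 for WT and by 5565 for DAXX_KO, a difference of 54.5 with an SE of 237, so the DAXX_KO response differed on the log2 scale and not beyond its error in CPM. In the ATRX series the increase was 5736 CPM in WT and 2541 CPM in ATRX_KO, which was 44.3% of the WT increase.

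CDKN2D, whose protein binds CDK4 and CDK6, was 18.7, 15 and 17.8 CPM in WT etoposide libraries of the DAXX series and 34.7, 37 and 28.1 CPM in DAXX_KO, with no overlap. In the ATRX series it was 19.2, 21 and 16.7 CPM in WT and 19, 21.6 and 27.3 CPM in ATRX_KO, which overlapped. The log2 response was -1.90 (SE 0.11, adjusted p = 2.59e-11) in WT and -1.27 (SE 0.10, adjusted p = 3.82e-09) in DAXX_KO. It was -1.92 (SE 0.12, adjusted p = 6.61e-10) in WT of the ATRX series and -1.09 (SE 0.12, adjusted p = 1.10e-06) in ATRX_KO. CDKN2D therefore fell less on the log2 scale in both knockouts, with interactions of 0.63 (SE 0.15, adjusted p = 0.0092) and 0.83 (SE 0.17, adjusted p = 0.00345). In DAXX_KO the etoposide level was higher than in WT (log2 0.95, SE 0.12, adjusted p = 1.79e-06), while in ATRX_KO it was not called different (log2 0.23, SE 0.13, adjusted p = 0.154) and the control level was lower. Without ATRX_KO etoposide replicate 1 that difference was called, at 0.34 (adjusted p = 0.0364), and without ATRX_KO etoposide replicate 3 it was 0.08 (adjusted p = 0.652). On the CPM scale CDKN2D fell by 47.6 in WT of the DAXX series and fell by 47.4 in DAXX_KO. It fell by 54.1 in WT of the ATRX series and fell by 25.3 in ATRX_KO.

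KRI1, a ribosome biogenesis gene, starts 429 bases beyond the 3′ end of CDKN2D on the same strand and had 170 to 718 counts. In DAXX_KO control cells KRI1 was lower than in WT (log2 -1.04, SE 0.10, adjusted p = 2.55e-08) where CDKN2D was higher, and its interaction was 0.52 (SE 0.14, adjusted p = 0.0171). The KRI1 interaction in ATRX_KO was 0.01 (SE 0.12, adjusted p = 0.975). Whether reads of the gene pair were mixed was not tested.

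CDKN1B was 15.5, 20.3 and 18.1 CPM in WT etoposide libraries of the DAXX series and 20.1, 21.3 and 20.4 CPM in DAXX_KO, which overlapped. For the ATRX series it was 14.9, 16.6 and 17.6 CPM in WT and 20.3, 21.4 and 18.5 CPM in ATRX_KO, which did not overlap. The log2 response was -0.83 (SE 0.11) in WT and -0.77 (SE 0.10) in DAXX_KO, with an interaction of 0.06 (SE 0.15, adjusted p = 0.859) that turned to -0.05 when libraries were scaled by their totals alone. In the ATRX series it was -1.08 (SE 0.10) in WT and -0.48 (SE 0.09) in ATRX_KO, with an interaction of 0.60 (SE 0.13, adjusted p = 0.00656). The etoposide level in ATRX_KO was higher than in WT (log2 0.27, SE 0.10, adjusted p = 0.0345), a call that was lost in DESeq2 (adjusted p = 0.0661). In edgeR it was also lost without WT etoposide replicate 1 (log2 0.23, adjusted p = 0.105), ATRX_KO etoposide replicate 1 (log2 0.26, adjusted p = 0.0608) or ATRX_KO etoposide replicate 2 (log2 0.22, adjusted p = 0.128). GPR19 overlaps CDKN1B on the opposite strand in the GENCODE annotation that gave the positions here. GPR19 had 3 to 33 counts, far fewer than the 122 to 460 of CDKN1B. Whether the gene models used for counting overlap was not tested.

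The interaction was called for 2 of the 3 tested inhibitor genes in the DAXX series, where 14.2% of genes were called, and for 3 of 3 in the ATRX series, where 16% were. CDKN1A was negative and CDKN2D positive in both. Within a series, the comparison of control cells, the etoposide responses and the interaction use the same libraries and are not independent of each other.

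**Figure D3:**
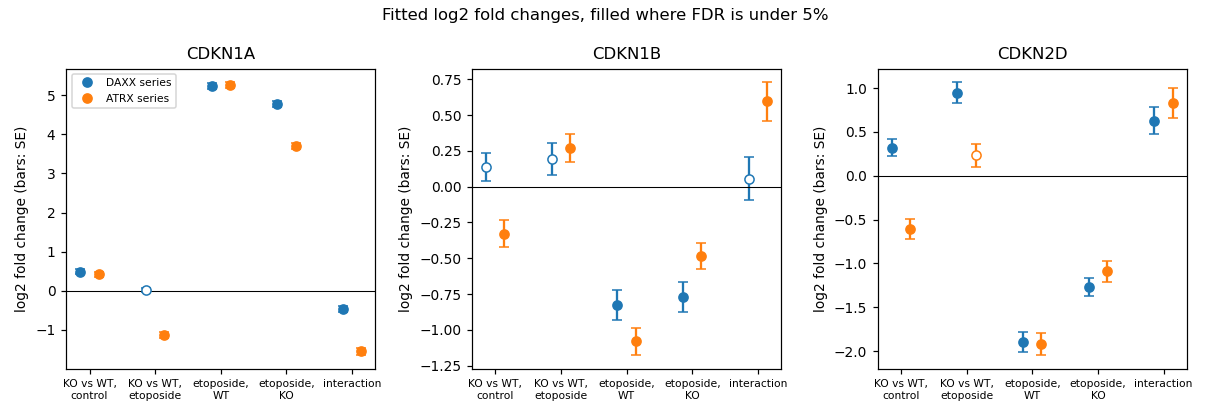
Log2 fold changes with SE bars (vertical axis) of CDKN1A, CDKN1B and CDKN2D for 5 comparisons (horizontal axis) in the DAXX series (blue) and ATRX series (orange), filled where the FDR is under 5%. The interaction of CDKN1A was -0.47 and -1.55, and the CDKN2D difference in control cells was 0.32 and -0.60.

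The series were then compared with each other in 1 fit of all 24 libraries. Of the 3 genes, 0 were called between the WT control cells of the series, where 13.2% of 16674 genes were, and 0 had an unadjusted p under 0.05 in edgeR or a call in DESeq2. The knockout effect in control cells, ATRX series minus DAXX series, was called for CDKN1B (log2 -0.47, SE 0.13, adjusted p = 0.00508) and CDKN2D (log2 -0.92, SE 0.16, adjusted p = 4.17e-05), where 34.1% of genes were called. For CDKN1A it was -0.07 (SE 0.09, adjusted p = 0.57). The interaction differed between the series for CDKN1A (log2 -1.06, SE 0.12, adjusted p = 6.9e-06), where 3% of genes were called. It was not called for CDKN1B (log2 0.56, SE 0.19, adjusted p = 0.105) or CDKN2D (log2 0.23, SE 0.24, adjusted p = 0.693). Series and any difference in library preparation between them cannot be told apart, except that each knockout was set against WT of its own series.

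In the order of group means, CDKN1A was highest in WT etoposide cells of the ATRX series at 5893 ± 35.4 CPM, then DAXX_KO etoposide at 5777 ± 386 and WT etoposide of the DAXX series at 5662 ± 138, and these neighbours overlapped. ATRX_KO etoposide at 2750.4 ± 126 CPM followed and overlapped neither neighbour. DAXX_KO control at 213 ± 6.36 and ATRX_KO control at 209 ± 14.4 CPM overlapped, as did the WT controls at 157 ± 3.13 and 152 ± 8.60 CPM. For CDKN1B the 4 control groups came first, from 35.3 ± 2.16 CPM in DAXX_KO to 27.9 ± 0.875 in ATRX_KO, and the 4 etoposide groups, 20.6 ± 0.600 to 16.4 ± 1.33 CPM, overlapped their neighbours. For CDKN2D, DAXX_KO control was highest at 80.6 ± 3.67 CPM, DAXX_KO etoposide at 33.2 ± 4.6 CPM stood apart from the other etoposide groups, and those overlapped between 22.6 ± 4.26 and 17.2 ± 1.96 CPM.

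Over the 24 libraries, the Pearson correlation of log2(CPM + 1) was -0.94 between CDKN1A and CDKN1B, -0.91 between CDKN1A and CDKN2D and 0.94 between CDKN1B and CDKN2D. The genes most like CDKN1A were UNC5B-AS1 (r = 0.996), an antisense RNA, and DDIT3 (r = 0.994), a stress-response transcription factor. CDKN1B was most like CKAP2 (r = 0.968), a spindle protein gene, and GNAQ (r = 0.964), and CDKN2D was most like PHTF2 (r = 0.980) and CD59 (r = 0.977), an inhibitor of complement. The libraries share the etoposide groups and their depth, so these values describe the 24 libraries, and between 2.61% and 2.87% of genes had an r above 0.9 with each of the 3.

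The genes that the inhibitors act on or through were read from 4 lists. With etoposide, 17 of 19 tested cyclins and kinases of the DAXX series fell in WT cells, as did 16 of 18 for the ATRX series, with 0 higher in each, and their median log2 fold change was -1.57 and -1.47, against 0.02 and 0.07 over all genes. Over all tested genes 30.6% fell and 29.6% rose in the DAXX series, against 29.8% and 31.7% in the ATRX series. CCNA2, cyclin A of S and G2 phase, had log2 responses of -4.48 (SE 0.13) and -4.15 (SE 0.18), and the mitotic kinase CDK1 of -3.70 (SE 0.13) and -3.04 (SE 0.11). CDK4, an INK4 target, had -0.50 and -0.48, CDK6 -0.92 and -0.61, and CCND1, cyclin D of G1 phase, -1.04 and -0.88, all past the test.

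In control cells, 10 of 19 cyclins and kinases were lower and 3 higher in DAXX_KO, and 10 of 18 were lower and 2 higher in ATRX_KO. Among all tested genes 26.6% were lower and 26.7% higher in DAXX_KO, and 21% and 20.8% in ATRX_KO. CCND1 was lower by log2 fold changes of -1.41 and -1.06, and CDK6 of -0.96 and -1.71. CDK4 was higher by 0.26 and 0.20. For the interaction, 5 of 19 were higher and 1 lower in DAXX_KO, and 2 and 2 of 18 in ATRX_KO, against 8.38% higher and 5.79% lower of all genes for DAXX_KO and 8.36% and 7.64% for ATRX_KO. CCND1 was higher at 0.84 and 0.96 and CDK6 lower at -0.72 and -0.41, while CDK4 was at 0.83 for DAXX_KO (adjusted p = 3.93e-06, edgeR) and at 0.16 for ATRX_KO (adjusted p = 0.304).

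Among 17 tested pocket proteins and E2F genes, 13 fell and 2 rose with etoposide in DAXX series WT cells, while 14 fell and 2 rose in those of the ATRX series. Among all tested genes 30.6% fell and 29.6% rose in the DAXX series, and 29.8% and 31.7% in the ATRX series. RBL1, a relative of the retinoblastoma protein, fell by 2.41 and 2.11 on the log2 scale, E2F8, a repressor of the E2F family, by 2.90 and 2.78 and LIN9, of the complex that controls mitotic genes, by 3.15 and 2.67. In control cells of both series 5 were lower and 2 higher, where all tested genes gave 26.6% lower and 26.7% higher for DAXX_KO and 21% and 20.8% for ATRX_KO. Among them were TFDP1, a partner of E2F, at -1.06 and -0.40 and TFDP2 at 0.42 and 0.80. E2F1 was higher for DAXX_KO at 0.54 (adjusted p = 9.48e-06, edgeR) and lower for ATRX_KO at -0.35 (adjusted p = 0.00227). The interaction was higher for 3 genes and lower for 2 in DAXX_KO and for 4 and 1 in ATRX_KO, against 8.38% and 5.79% of all genes and 8.36% and 7.64%.

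Of 18 tested genes for turnover of the inhibitors, 11 fell and 5 rose with etoposide in WT cells of each series. Over all genes 30.6% fell and 29.6% rose (DAXX), and 29.8% and 31.7% (ATRX), so the rising genes were near the background. SKP2, which marks p27 for degradation, had log2 responses of -2.55 (SE 0.13) and -3.14 (SE 0.16), and CDC20, an activator of the anaphase-promoting complex, of -4.85 (SE 0.10) and -4.95 (SE 0.13). In control cells 8 were lower and 5 higher in DAXX_KO, and 7 and 4 in ATRX_KO. The shares over all genes were 26.6% and 26.7% for DAXX_KO and 21% and 20.8% for ATRX_KO, so the higher genes were near the background. DTL, which marks p21 for degradation, was at -1.57 and -1.16. For the interaction 7 were higher and 1 lower in DAXX_KO, and 5 and 0 in ATRX_KO, where 8.38% and 5.79% of all genes and 8.36% and 7.64% were. SKP2 was at 0.50 for DAXX_KO (adjusted p = 0.0893, edgeR) and at 0.97 for ATRX_KO (adjusted p = 0.0067).

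Of 32 tested transcriptional regulators, 21 fell with etoposide in WT cells of each series, and 8 (DAXX) and 6 (ATRX) rose. All tested genes gave 30.6% lower and 29.6% higher (DAXX), and 29.8% and 31.7% (ATRX), so the rising regulators did not exceed the background. Among the regulators that fell was MYC, with log2 responses of -2.58 (SE 0.33) and -2.25 (SE 0.33) in WT. MDM2, a ubiquitin ligase, had log2 responses of 4.05 (SE 0.08) and 4.2 (SE 0.09) in WT. The MDM2 interaction was -0.66 (SE 0.11) for DAXX_KO and -1.03 (SE 0.11) for ATRX_KO. TP73, a transcription factor gene, had 1 count over the 3 WT control libraries of the DAXX series and 75 with etoposide, and 3 and 175 in the ATRX series. It had 44 and 24 counts in DAXX_KO and 1 and 18 in ATRX_KO. In control cells 10 of 32 were lower in each knockout, and 8 and 5 were higher. Over all genes 26.6% were lower and 26.7% higher in DAXX_KO, both near the share of this list, and 21% and 20.8% in ATRX_KO. ETS2 was -2.36 and -2.24, and FOXO1, which activates CDKN1B, had 4 counts over the WT libraries against 50 over DAXX_KO, and 3 against 25 for ATRX_KO. For the interaction 5 were higher and 4 lower in DAXX_KO, and 10 and 2 in ATRX_KO, beside 8.38% and 5.79% of all genes for DAXX_KO and 8.36% and 7.64% for ATRX_KO. EED was lower, at -0.48 and -0.78, and KLF6, an activator of CDKN1A, was higher, at 0.53 and 0.45.

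**Figure D4:**
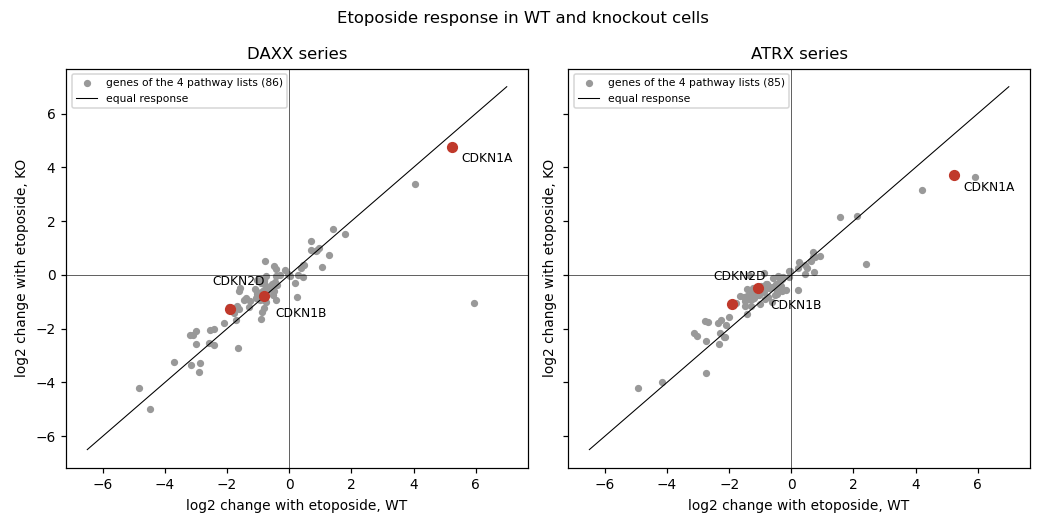
Log2 fold change with etoposide in WT (horizontal axis) and in KO (vertical axis) for each tested gene of the 4 pathway lists (grey) and for CDKN1A, CDKN1B and CDKN2D (red), with a line of equal response. CDKN1A lay below the line in both series, at 5.24 and 4.77 in the DAXX series and 5.25 and 3.70 in the ATRX series, and CDKN2D lay above it. The grey point far to the right in the DAXX series is TP73, which had 1 count over the WT control libraries.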

How the data were processed

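QuantSeq 3′ mRNA libraries were sequenced by the authors as single-end reads of 75 bases, aligned with STAR to hg19 and counted by gene (Ensembl, GRCh37) with RSEM. The RSEM version is 1.2.3 in the submitters' processing notes, and the study's methods name another. The values the authors deposited are estimated counts per gene (expected counts from RSEM) as whole numbers, with no normalization. Symbols came from GENCODE on GRCh37 and matched 55501 of 57736 IDs, with 98.8% of counts. Read strand in counting is not given in the sources used here.

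Counts were analysed with edgeR 4.0.16 (R 4.3.3) by TMM, filterByExpr (minimum count 10, minimum total 15) and the quasi-likelihood test, in 1 model of 4 groups per series and 1 of 8 groups across series. The SE of a log2 fold change was taken as its absolute value divided by the square root of the quasi-likelihood F. CPM used TMM over 24 libraries, with factors of 0.921 to 1.08. Alternatives were DESeq2 1.42.0, RLE and library-total scaling, other filters, other sets of libraries, a replicate block and leaving out each library. The procedure was tested on simulated data. The difference of the CPM changes was chosen after seeing the data.

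The members and lists were chosen with earlier results of these data known. Named genes are the 7 inhibitors, DAXX and ATRX, fixed partner genes, and up to 3 genes per list called in the same direction in both series with the largest smaller fold change. Neighbours were named for their position. The values of 1 fixed partner gene are not reported here. The study describes its experiments as done in biological duplicates or triplicates, and the titles number these libraries as replicates 1 to 3. Replicate pairs differed beyond counting error, with chi-square per degree of freedom of 2.16 to 17.1 over 24 pairs. Floors of 3 counts cover counting error only.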

Additional observations from a re-analysis of the deposited data

Results flagged for a closer look

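The etoposide response differed between knockout and WT cells by the interaction test for 5 of the gene and series pairs. These were 2 of 3 tested inhibitor genes in the DAXX series, where 14.2% of genes were called. In the ATRX series they were 3 of 3, where 16% of genes were called. For CDKN1A the knockout response minus the WT response was -0.47 (SE 0.08) in DAXX_KO and -1.55 (SE 0.09) in ATRX_KO on the log2 scale. For CDKN2D it was 0.63 (SE 0.15) and 0.83 (SE 0.17), and for CDKN1B it was 0.60 (SE 0.13) in ATRX_KO. In CPM the DAXX_KO response differed from that of WT by 54.5 (SE 237) for CDKN1A and 0.172 (SE 5.23) for CDKN2D, within the error of each. Between the series, ATRX minus DAXX, the CDKN1A interaction differed by -1.06 (SE 0.12), and the knockout effect in control cells by -0.47 (SE 0.13) for CDKN1B and -0.92 (SE 0.16) for CDKN2D. Over all genes 3% were called for the interaction between the series and 34.1% for the control effect.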

How the results depend on the processing

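With 3 libraries per group, small differences were limited by replicate spread, and genes with under 10 counts gave no test. Counts of called inhibitor genes and descriptions stayed within 1.5 times the main value in 293 of the alternative values and moved in 10. For ATRX_KO against WT with etoposide the count was 1, not 2, under DESeq2, without a filter, with only the groups compared and with a replicate block (CDKN1B adjusted p = 0.0525, edgeR). Leaving out each library in turn gave 1 to 2 for that comparison and 1 to 2 for DAXX_KO against WT in control cells. The difference between the series gave 2 calls for the interaction with library totals alone (CDKN1B 0.69, adjusted p = 0.0421, edgeR) and 1 for the control effect without a filter (CDKN1B -0.43, adjusted p = 0.0604). Over 8 group means only 1 of the 6 genes named as most alike was still among the 2 nearest. CDKN1A and CDKN1B values without a call changed sign, where the cause was not tested. CDKN1A, DAXX_KO against WT with etoposide, was -0.00247 with RLE, -0.00109 with at least 10 counts in every library and -0.0204 to 0.0793 without each library in turn, the lowest without DAXX_KO etoposide replicate 3. The CDKN1B interaction in the DAXX series was -0.0545 with library totals and -0.0359 to 0.158 without each library in turn, the lowest without WT etoposide replicate 1. With library totals CDKN1B was called higher in DAXX_KO control cells (0.32), and CDKN2D in ATRX_KO with etoposide (0.33), where the median of all genes shifted by 0.18 and 0.10. The same scaling shifted it by -0.11 for etoposide in DAXX_KO, by -0.11 for the DAXX interaction, and between the series by -0.12 for the control effect and 0.13 for the interaction.

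Library totals moved the share of calls that were higher from 50.1% to 66.2% in DAXX_KO control cells, from 59.1% to 36.8% for the DAXX interaction, from 50.1% to 60.2% for ATRX_KO with etoposide, and between the series from 50.3% to 37.3% for the control effect, from 36.0% to 65.3% for the interaction and from 54.6% to 70.7% for WT. All-gene calls for the interaction between series were 776 with DESeq2 and 752 without a filter, against 500, and calls between WT controls were 2206, and 1106 without WT control replicate 3 of the DAXX series and 1373 without that of the ATRX series. Same-numbered libraries did not deviate together from their group means, with correlations of -0.58 to 0.21 over 36 comparisons, and a replicate block changed no other member's call.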
